A study of Homo sapiens with 9 samples.

Results

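The 9 genes described here encode the proteins that make, load and regulate MHC class I molecules. They were chosen by name: every row of the deposited normalized count table whose symbol was HLA-B, HLA-C, B2M, TAP1, TAP2, TAPBP, NLRC5, ERAP1 or ERAP2. All 9 genes were in the table, in 10 of its 17518 rows, since TAP2 has a pair of rows. All 10 rows passed the filter on low values. Other classical heavy chain genes are not analysed here. RNA was measured in COR-L279, an established line of human small cell lung cancer (SCLC). It belongs to the SCLC-N subtype, named after the transcription factor NEUROD1. JQ1 is an inhibitor that keeps proteins of the BET family off acetylated histones, and the study asked how expression changes with it. One group received DMSO, the vehicle, another 0.5 µM JQ1 and the third 1.5 µM JQ1, each for 24 h, with 3 libraries a group and 9 in all. All libraries come from a single cell line. The labels call the 3 libraries of a group biological replicates without saying whether they were separate cultures, so that p-values measure the spread between these libraries.

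MHC class I molecules carry peptides from inside the cell to its surface, where CD8+ T cells read them. The proteasome cuts proteins into peptides, TAP1 and TAP2 form the pump that brings the peptides into the endoplasmic reticulum, and the aminopeptidases ERAP1 and ERAP2 trim them there. Tapasin, the product of TAPBP, holds an empty class I molecule at the pump until a peptide is bound. A class I molecule is a heavy chain, such as HLA-B or HLA-C, paired with the invariant light chain beta-2-microglobulin, the product of B2M. NLRC5 is the transactivator that binds, through factors of the X and Y boxes, at the promoters of class I genes. SCLC cells of the neuroendocrine subtypes are known for low class I levels.

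The promoters of these genes share short elements through which interferon, NF-kappa B and NLRC5 are known to act, and 4 of them were searched in RefSeq windows of GRCh38.p14 that run from 250 bases before to 50 bases after each start. A window was found for 8 of the 9 genes, all but NLRC5. The search was for the core of the interferon-stimulated response element (ISRE), which is TTTC, any 2 bases and TTTC, the CCAAT box of the Y box, CCAAT, the core of the X2 box, TGACGC, and a kappa B core, which is GGGA, any base, T, any 2 bases and CC, on both strands. Matches of the same element can overlap each other. The ISRE core was found in 6 of the 8 genes, beside 4.38% of the 27305 genes with a window and 3.57% of all 35116 windows. The CCAAT box was in 5 of the 8, beside 39.7% of genes and 34.6% of windows. The X2 core was in 3 (HLA-B, HLA-C and TAP2), beside 10.9% of genes and 9.14% of windows, and the kappa B core in 4 (HLA-B, HLA-C, B2M and TAP1), beside 6.15% and 5.13%. The members differ here: HLA-B and HLA-C hold the X2 and kappa B cores and no ISRE core of these letters, while TAPBP and ERAP2 hold the ISRE core alone. Only exact letters counted as a match, so an element with a changed base was missed and a gene without a match may still hold one. A match is a run of letters, and binding was not measured.

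The stretches below are shown so that these elements can be compared between the 2 heavy chain genes, the light chain gene and 2 genes of the loading step, TAP1 and TAPBP. Each is the reference sequence of the 250 bases before the start, in the direction of the gene, with matches to any of the 4 elements in capitals. They are reference sequences of GRCh38.p14 and were not read from COR-L279.
HLA-C, chr6:31272093-31272342 (minus strand): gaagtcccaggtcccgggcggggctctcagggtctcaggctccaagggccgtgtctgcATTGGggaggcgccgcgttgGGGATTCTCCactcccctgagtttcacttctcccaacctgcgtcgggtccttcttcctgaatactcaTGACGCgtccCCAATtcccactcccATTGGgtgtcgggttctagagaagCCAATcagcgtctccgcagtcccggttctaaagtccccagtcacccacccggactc
HLA-B, chr6:31357180-31357429 (minus strand): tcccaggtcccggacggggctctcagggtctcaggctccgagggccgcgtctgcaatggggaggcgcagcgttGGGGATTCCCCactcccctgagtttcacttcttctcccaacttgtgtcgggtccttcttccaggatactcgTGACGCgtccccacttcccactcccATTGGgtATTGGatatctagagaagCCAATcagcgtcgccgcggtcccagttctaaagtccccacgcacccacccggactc
B2M, chr15:44711267-44711516 (plus strand): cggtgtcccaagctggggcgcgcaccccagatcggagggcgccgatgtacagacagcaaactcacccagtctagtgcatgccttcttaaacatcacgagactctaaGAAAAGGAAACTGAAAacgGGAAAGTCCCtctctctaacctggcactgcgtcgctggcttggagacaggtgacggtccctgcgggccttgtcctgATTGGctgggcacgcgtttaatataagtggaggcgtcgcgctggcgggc
TAP1, chr6:32853705-32853954 (minus strand): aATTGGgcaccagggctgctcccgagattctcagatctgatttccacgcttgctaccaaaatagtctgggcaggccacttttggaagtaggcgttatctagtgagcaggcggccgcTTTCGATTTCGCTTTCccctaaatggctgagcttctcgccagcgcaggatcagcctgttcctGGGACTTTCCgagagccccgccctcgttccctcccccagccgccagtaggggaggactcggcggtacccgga
TAPBP, chr6:33314079-33314328 (minus strand): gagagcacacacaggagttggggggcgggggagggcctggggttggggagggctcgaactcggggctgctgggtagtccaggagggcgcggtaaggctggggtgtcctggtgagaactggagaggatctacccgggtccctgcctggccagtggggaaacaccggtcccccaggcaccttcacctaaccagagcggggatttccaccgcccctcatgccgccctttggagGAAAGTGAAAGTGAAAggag
In B2M the tandem ISRE cores lie between positions -144 and -129, counted from the first transcribed base, in TAP1 between -134 and -119, and in TAPBP between -20 and -5. The X2 core of HLA-B lies at -106 and that of HLA-C at -105. For TAP2 and the 2 aminopeptidase genes, the 30 bases around the ISRE core are shown, with the core in capitals.
TAP2, chr6:32838778-32838807 (minus strand): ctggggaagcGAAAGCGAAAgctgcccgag
ERAP1, chr5:96807924-96807953 (minus strand): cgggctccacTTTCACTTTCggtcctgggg
ERAP2, chr5:96876460-96876489 (plus strand): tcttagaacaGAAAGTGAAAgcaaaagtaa
These cores begin at position -58 in TAP2, 3 in ERAP1 and -30 in ERAP2.

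Values are the authors' normalized counts, reads of a gene divided by 1 size factor per library, and reads in the listed genes came to between 60721187 (0.5 µM replicate 2) and 88482001 (DMSO replicate 2) a library. HEXIM1, a widely used marker of BET inhibition, stood at 1101 to 1142 normalized counts in DMSO, 5423 to 5570 at 0.5 µM and 6819 to 7101 at 1.5 µM. The 10 fixed neuroendocrine markers summed to 282875 to 297277 normalized counts over the 9 libraries, and PTPRC, the pan-leukocyte marker, was at most 0.02 FPKM. In 0.5 µM replicate 3 and in replicates 1 and 2 of 1.5 µM, the noncoding RNA H19 held 1476 to 2071 normalized counts whereas the other JQ1 libraries held 1.04 to 8.22 and DMSO 63.8 to 82.8. The glucose transporter gene SLC2A3 was also high in these 3 libraries, and 0.5 µM replicate 2 stood apart from the other libraries in several genes below. For the class I genes, values without these libraries are given where a call ended or a called value moved by over 1.5 times.

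Class I presentation genes fell with JQ1, apart from the light chain and HLA-B. At 0.5 µM, 7 of the 9 genes fell, B2M rose and HLA-B did not pass the test, with limma and Benjamini-Hochberg adjustment over 17514 genes at 0.05. Over all genes tested at this dose, 70.0% were called, 34.7% lower and 35.3% higher. At 1.5 µM the same 7 genes fell, B2M rose and HLA-B again did not pass, beside 73.1% of all genes called, 36.2% lower and 36.9% higher. In size, 6 of the 9 fell by at least 2-fold at 0.5 µM against 10.1% of all genes, and 5 did at 1.5 µM against 11.8%. The sixth at 0.5 µM was TAPBP, and the count there was 5 without 0.5 µM replicate 2. For the 7 genes that fell, every JQ1 library lay below every DMSO library at both doses, and for B2M every one lay above. Over all genes, groups parted in this way toward lower values in 36.4% at 0.5 µM and 41.0% at 1.5 µM, and toward higher values in 36.2% and 40.7%. The median log2 fold change of the 9 genes was -1.34 at 0.5 µM and -1.71 at 1.5 µM, beside -0.010 and -0.0030 over all genes. The 9 genes were chosen with earlier results of these data known, so these comparisons with all genes are a description and not a test. The 2 doses share their DMSO libraries, so the comparisons with DMSO are not independent of each other. In RNA from whole cultures, fewer cells that express a gene and less RNA per cell cannot be told apart.

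**Figure D1:**
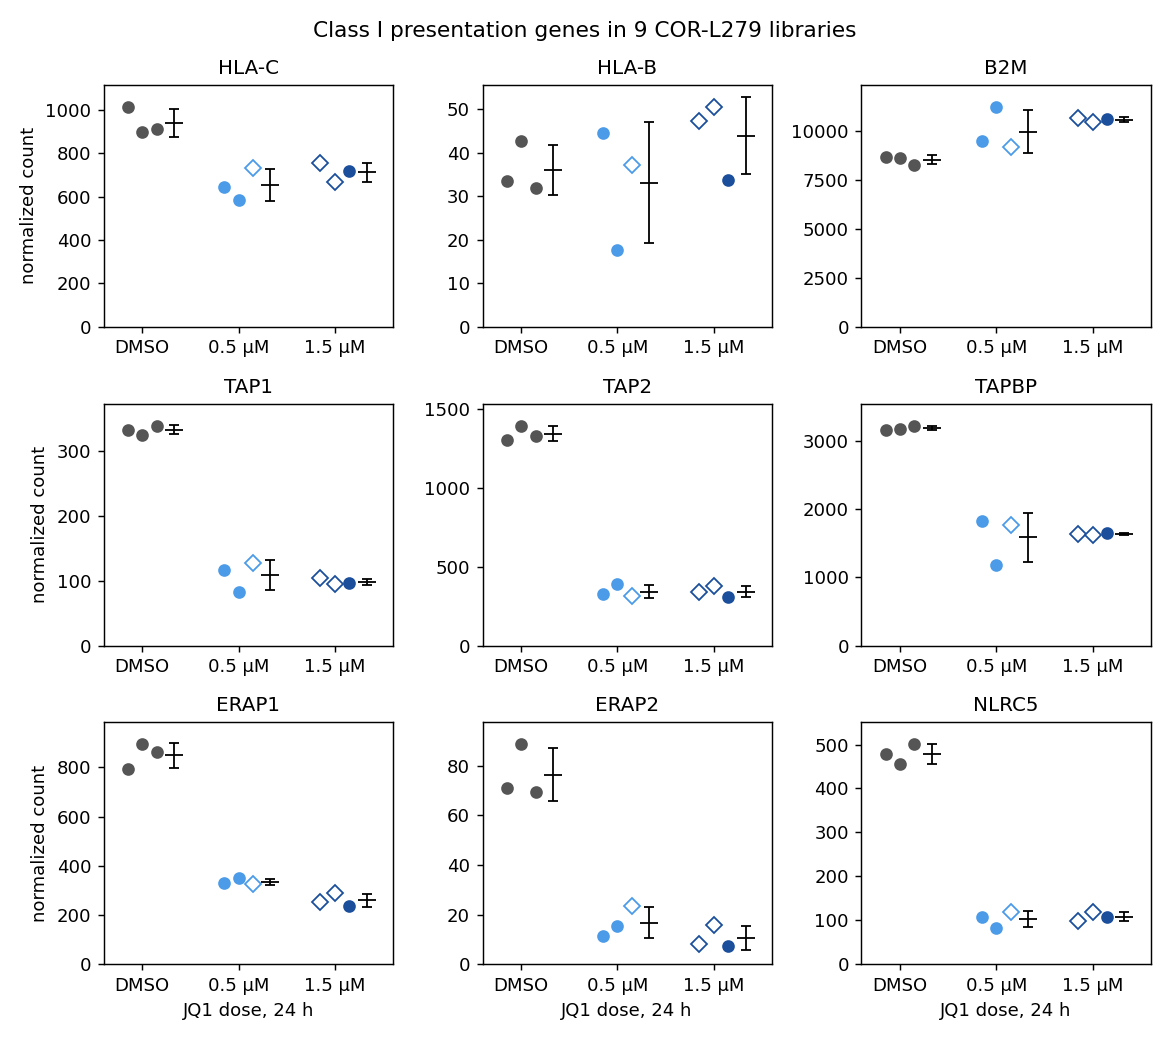
Normalized count (vertical axis, from 0) of each of the 9 genes in every library, by JQ1 dose over 24 h, with mean and SD (n = 3) beside each group and open diamonds for the 3 JQ1 libraries with H19 and SLC2A3. For TAP1, TAP2, TAPBP, ERAP1, ERAP2, NLRC5 and HLA-C the 6 JQ1 libraries lie below the 3 DMSO libraries, for B2M above them, and for HLA-B the groups overlap.

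Values are given here by replicate number. NLRC5 (ENSG00000140853.11), the class I transactivator, had 478, 456 and 501 normalized counts in DMSO, 107, 82.2 and 119 at 0.5 µM, and 99.0, 118 and 108 at 1.5 µM. No JQ1 library reached a level near that of any DMSO library, and the 2 doses overlapped. Relative to DMSO it fell 4.67-fold at 0.5 µM (log2 fold change -2.22 ± 0.14, SE, limma adjusted p = 1.87e-07) and 4.39-fold at 1.5 µM (-2.14 ± 0.14, adjusted p = 1.73e-07). On FPKM values its log2 fold changes were -1.47 and -1.75. Between the doses the log2 difference was 0.09 ± 0.14 (adjusted p = 0.711), with the opposite sign on FPKM values and without 0.5 µM replicate 2.

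Both subunits of the peptide pump fell. TAP1 (ENSG00000168394.9) had 334, 326 and 339.6 normalized counts in DMSO, 116, 82.2 and 127 at 0.5 µM, and 104, 95.0 and 96.4 at 1.5 µM. It fell 3.10-fold at 0.5 µM (log2 fold change -1.63 ± 0.15, SE, adjusted p = 3.60e-06) and 3.36-fold at 1.5 µM (-1.75 ± 0.15, adjusted p = 1.60e-06). GENCODE release 29 places PSMB9 and PSMB8-AS1 over TAP1 on the opposite strand, and whether reads were counted by strand is not known here, so that reads of these genes cannot be told apart with certainty. TAP2 (ENSG00000204267.9) had 1302, 1392 and 1327 normalized counts in DMSO, 325, 387 and 313 at 0.5 µM, and 340.2, 378 and 305 at 1.5 µM. All 6 JQ1 libraries held less than any DMSO library, with the doses side by side. The fall was 3.93-fold at 0.5 µM (log2 fold change -1.97 ± 0.097, SE, adjusted p = 3.53e-08) and 3.94-fold at 1.5 µM (-1.98 ± 0.097, adjusted p = 2.17e-08).

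The other row that carries the symbol TAP2 (ENSG00000250264.1) is a model that GENCODE release 29 lists under a clone name and that overlaps both TAP2 and HLA-DOB on the same strand. It had 91.3, 17.1 and 82.8 normalized counts in DMSO, 50.8, 0 and 81.1 at 0.5 µM, and 13.4, 0 and 46.2 at 1.5 µM. The groups overlapped, and replicate 2 was the lowest library of every group. Summed over both rows, TAP2 held 1393, 1409 and 1409 normalized counts in DMSO, 376, 387 and 394 at 0.5 µM, and 354, 378 and 351 at 1.5 µM. The sum varied less within groups than either row: its SD was 9.25 in DMSO and 9.49 at 0.5 µM, where TAP2 itself had 46.5 and 39.9.

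TAPBP (ENSG00000231925.7), the gene of tapasin, had 3163, 3179 and 3227 normalized counts in DMSO, 1823, 1179 and 1768 at 0.5 µM, and 1642, 1628 and 1645 at 1.5 µM. The DMSO and 1.5 µM libraries were each within a narrow band, and 0.5 µM replicate 2 was the lowest of the 9 libraries. TAPBP fell 2.04-fold at 0.5 µM (log2 fold change -1.03 ± 0.13, SE, adjusted p = 4.42e-05; -0.83 without that library) and 1.95-fold at 1.5 µM (-0.96 ± 0.13, adjusted p = 6.37e-05). Between the doses it differed by 0.07 ± 0.13 (adjusted p = 0.755). Without 0.5 µM replicate 2 that difference was -0.13 and passed the test (adjusted p = 0.0169).

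The trimming aminopeptidases fell too, and ERAP1 was the 1 gene of the 9 that differed between the doses. ERAP1 (ENSG00000164307.8) had 795, 894 and 862 normalized counts in DMSO, 329.9, 349.8 and 327 at 0.5 µM, and 254, 289 and 236 at 1.5 µM. The 3 groups did not overlap, with the 1.5 µM libraries the lowest. It fell 2.53-fold at 0.5 µM (log2 fold change -1.34 ± 0.085, SE, adjusted p = 2.19e-07) and 3.27-fold at 1.5 µM (-1.71 ± 0.085, adjusted p = 2.30e-08). At 1.5 µM it was lower than at 0.5 µM by a log2 difference of -0.37 ± 0.085 (adjusted p = 0.0194). Over all genes, 12.7% were called between the doses, 8.09% lower and 4.66% higher at 1.5 µM, and in 18.3% the groups parted toward lower values. The ERAP1 difference did not pass on FPKM values (-0.21, adjusted p = 0.436), in a fit to the 6 JQ1 libraries alone (-0.37, adjusted p = 0.0625), or when the 3 libraries with H19 and SLC2A3 were left out (-0.52, adjusted p = 0.123). Leaving out 1.5 µM replicate 1 (-0.36, adjusted p = 0.0627) or replicate 3 (-0.31, adjusted p = 0.0764) also ended the call. CAST overlaps ERAP1 on the opposite strand in GENCODE release 29.

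ERAP2 (ENSG00000164308.12) was among the lowest of the 9 genes, with 71.0, 88.6 and 69.6 normalized counts in DMSO, 11.4, 15.3 and 23.7 at 0.5 µM, and 8.25, 16.0 and 7.18 at 1.5 µM. The DMSO libraries all lay above 69 and the JQ1 libraries all under 24. It fell 4.51-fold at 0.5 µM (log2 fold change -2.17 ± 0.36, SE, adjusted p = 0.000319) and 7.08-fold at 1.5 µM (-2.82 ± 0.36, adjusted p = 3.86e-05). At counts this low the log2 scale with 1 added understates the change. The doses overlapped and differed by -0.65 ± 0.36 (adjusted p = 0.265).

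**Figure D2:**
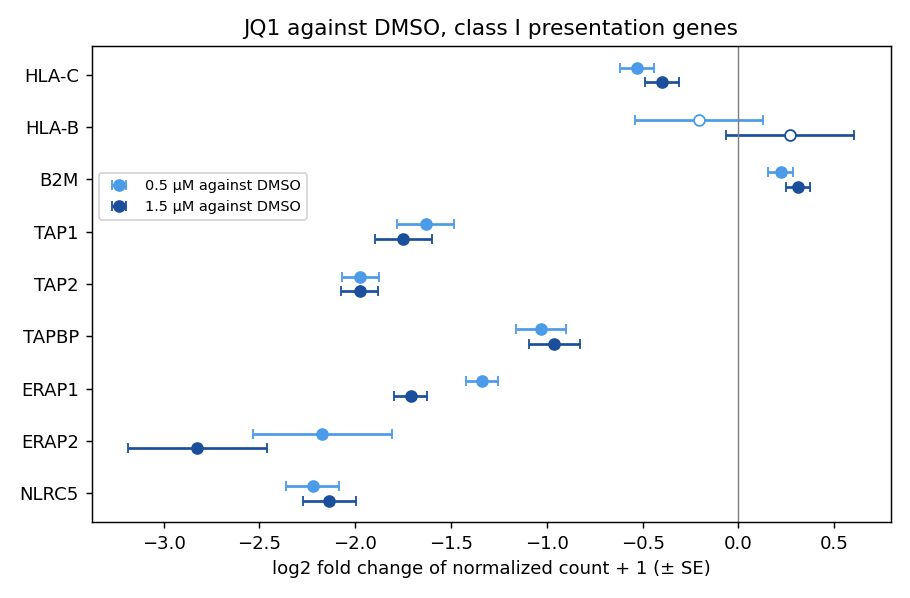
Log2 fold change of the normalized count + 1 against DMSO for each gene, with its SE from the limma fit, at 0.5 µM (light) and 1.5 µM (dark); open points have an adjusted p of 0.05 or more. NLRC5, ERAP2 and TAP2 lie farthest to the left at 0.5 µM, between -2.22 and -1.97, B2M lies to the right of 0, and the error bars of HLA-B cross 0 at 0.5 µM and 1.5 µM.

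The light chain moved the other way. B2M (ENSG00000166710.13) had 8694, 8641 and 8279 normalized counts in DMSO, 9504, 11239.8 and 9197 at 0.5 µM, and 10696, 10450.4 and 10605 at 1.5 µM. All 6 JQ1 libraries lay above the 3 DMSO libraries, and 0.5 µM replicate 2 was the highest of all 9. B2M rose 1.16-fold at 0.5 µM (log2 fold change 0.22 ± 0.063, SE, adjusted p = 0.00987) and 1.24-fold at 1.5 µM (0.31 ± 0.063, adjusted p = 0.00113). With 0.5 µM replicate 2 left out, the log2 fold change at 0.5 µM was 0.13 (adjusted p = 0.00121). Between the doses B2M differed by 0.09 ± 0.063 (adjusted p = 0.372). With library weights that difference passed (0.15, adjusted p = 0.0018), as it did when 0.5 µM replicate 2 was left out (0.18, adjusted p = 0.00148).

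Of the heavy chains, HLA-C fell and HLA-B, which held few reads, did not pass the test. HLA-C (ENSG00000204525.10) had 1013, 896 and 911 normalized counts in DMSO, 644, 583 and 732 at 0.5 µM, and 755, 666 and 716 at 1.5 µM. Every JQ1 library was below every DMSO library, with overlap between the doses. HLA-C fell 1.44-fold at 0.5 µM (log2 fold change -0.53 ± 0.088, SE, adjusted p = 0.000308) and 1.32-fold at 1.5 µM (-0.40 ± 0.088, adjusted p = 0.00186). The 3 libraries with H19 and SLC2A3 held 666 to 755 normalized counts of HLA-C, and the remaining JQ1 libraries 583 to 716. HLA-B (ENSG00000234745.5) had 33.5, 42.8 and 32.0 normalized counts in DMSO, 44.6, 17.6 and 37.2 at 0.5 µM, and 47.4, 50.6 and 33.9 at 1.5 µM. The groups overlapped throughout. Its log2 fold change was -0.21 ± 0.34 (SE, adjusted p = 0.598) at 0.5 µM and 0.27 ± 0.34 (adjusted p = 0.487) at 1.5 µM. Neither sign was stable: without 0.5 µM replicate 2 the first was 0.18, with library weights it was 0.08, and without the 3 libraries with H19 and SLC2A3 the second was -0.08. HLA-B and HLA-C are near-identical and highly polymorphic, so reads assigned to one may belong to another class I gene, and both values are uncertain.

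Relative to the light chain, HLA-C RNA was lower in JQ1 than in DMSO. Per 100 normalized counts of B2M there were 10.4 to 11.7 of HLA-C in DMSO, 6.78, 5.19 and 7.96 at 0.5 µM, and 7.05, 6.38 and 6.75 at 1.5 µM. The mean ratio dropped by 39.6% at 0.5 µM, from 11.01 ± 0.642 to 6.64 ± 1.39, and dropped by 38.9% at 1.5 µM, to 6.73 ± 0.339 (SD, n = 3, exact permutation test, two-sided p = 0.1 for each dose). The groups did not overlap, and 0.1 is the smallest p that 3 against 3 libraries can give. Since HLA-C was lower and B2M higher in every JQ1 library, the ratio had to part in this way. Its p therefore adds nothing to the results of the 2 genes.

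**Figure D3:**
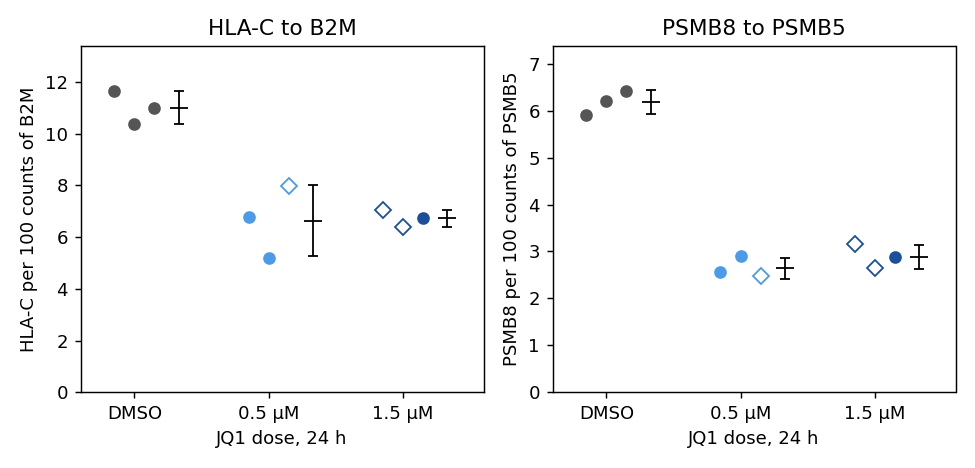
HLA-C per 100 normalized counts of B2M (left) and PSMB8 per 100 normalized counts of PSMB5 (right) in every library, by JQ1 dose over 24 h, with mean and SD (n = 3) and open diamonds for the 3 JQ1 libraries with H19 and SLC2A3. In both panels all 6 JQ1 libraries lie below the 3 DMSO libraries, at 5.19 to 7.96 on the left and 2.47 to 3.15 on the right.

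Levels can be compared between genes only per length, on the authors' FPKM scale. In DMSO, B2M stood at 261 ± 7.20 FPKM (SD, n = 3), above TAPBP at 14.8 ± 0.280, HLA-C at 10.3 ± 0.765, TAP2 at 6.54 ± 1.46 and ERAP1 at 2.99 ± 0.0777. NLRC5 at 2.09 ± 0.453 and TAP1 at 1.92 ± 0.0551 overlapped, as did ERAP2 at 0.453 ± 0.272 and HLA-B at 0.42 ± 0.0866. All other neighbours in this order parted without overlap. At 0.5 µM, HLA-C (6.93 ± 0.618 FPKM) and TAPBP (6.51 ± 1.51) overlapped, and at 1.5 µM HLA-C (7.40 ± 0.458) was above TAPBP (6.71 ± 0.186). TAP2 was at 1.70 ± 0.698 FPKM at 0.5 µM and at 1.80 ± 0.548 at 1.5 µM. In the 1.5 µM libraries, ERAP1, NLRC5, TAP1 and HLA-B formed a run of overlapping neighbours between 0.34 and 1.12 FPKM. HLA-B at 0.513 ± 0.158 was then above ERAP2 at 0.113 ± 0.0681, the lowest of the 9.

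**Figure D4:**
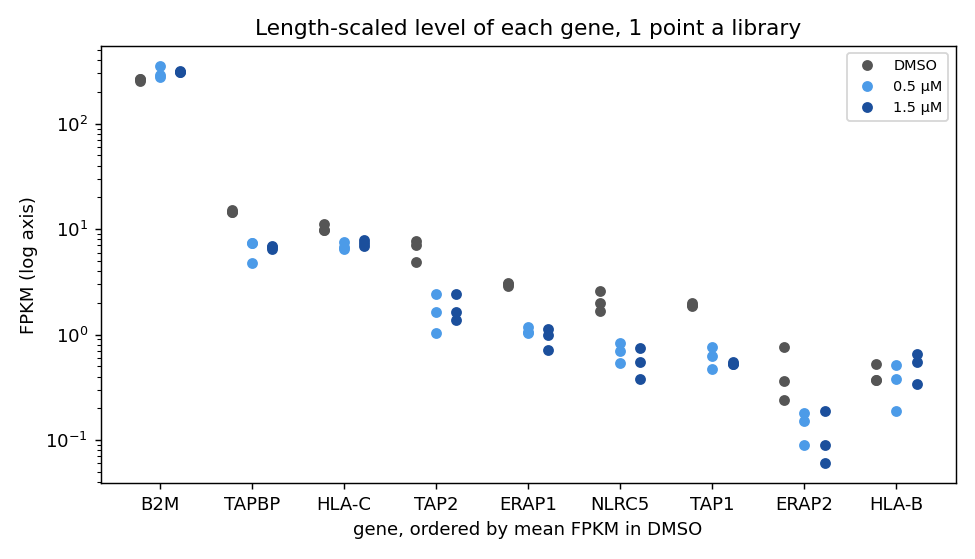
FPKM (log axis) of each gene in every library, with the genes ordered by their mean in DMSO. B2M lies above all others at 253 to 354 FPKM, and HLA-C lies below TAPBP in DMSO, overlaps it at 0.5 µM and lies above it at 1.5 µM.

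The genes whose pattern over the 9 libraries was most like that of 3 members were found by the mean absolute difference of centred log2 values, among 11606 candidates. For NLRC5 they were TMBIM1 (0.0848) and ABCA1 (0.0880), which pumps cholesterol out of cells. TMBIM1 averaged 461 normalized counts in DMSO, 104 at 0.5 µM and 109 at 1.5 µM, close to the course of NLRC5. For B2M they were VDAC3 (0.0275), a mitochondrial channel, and C4orf29 (0.0327), and for HLA-B they were MTRNR2L8 (0.166) and GMPPB (0.183). The values for HLA-B were the least alike.

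The wider pathway was described with 10 further lists, as counts past the test and medians, beside the shares over all genes given above. Among the other class I chains and loading chaperones, 5 of 8 were in the table, and 4 fell and none rose at each dose. TAPBPL, a tapasin relative that edits peptides, fell from 420.2 ± 8.37 normalized counts (SD, n = 3) to 196 ± 14.3 and 179 ± 14.7, log2 fold changes of -1.10 at 0.5 µM and -1.23 at 1.5 µM. The chaperones CALR (-0.64 and -0.80) and PDIA3 (-0.60 and -0.74) fell as well. HLA-E, a nonclassical heavy chain read by NK cells, had log2 fold changes of -0.95 ± 0.68 (SE, adjusted p = 0.237) and 0.33 ± 0.68 (adjusted p = 0.677). It held 57.5 to 64.9 normalized counts in the 3 libraries with H19 and SLC2A3, while the range was 7.04 to 19.5 over the remaining JQ1 libraries and 28.2 to 40.4 over DMSO. Without those 3 libraries its log2 fold change was -1.80 at 0.5 µM, past the test (adjusted p = 0.00394), and -0.76 at 1.5 µM (adjusted p = 0.187). At 0.5 µM it also passed with library weights (-1.25, adjusted p = 0.0257).

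Immunoproteasome genes fell together with TAP1 and TAP2. Of 5 genes of the immunoproteasome and its activator, 4 fell and none rose at each dose, with PSME1 not past the test, and the median log2 fold change was -0.77 at 0.5 µM and -0.72 at 1.5 µM. PSMB8, a catalytic subunit, fell from 1077 ± 14.2 normalized counts to 291 ± 35.2 at 0.5 µM and 278 ± 31.5 at 1.5 µM, 3.71-fold and 3.88-fold. PSMB9, another catalytic subunit, had 34.5 to 54.6 normalized counts in DMSO, 10.1 to 25.9 at 0.5 µM and 10.3 to 19.5 at 1.5 µM. It fell by log2 fold changes of -1.27 ± 0.39 (SE, adjusted p = 0.0140) and -1.60 ± 0.39 (adjusted p = 0.00354), and the first missed the threshold without DMSO replicate 3 (-1.12, adjusted p = 0.0592). PSMB10, the remaining catalytic subunit, fell by -0.77 and -0.72. The 3 constitutive subunits that these replace fell too: PSMB5 by log2 fold changes of -0.67 and -0.86, PSMB6 by -0.60 and -0.82 and PSMB7 by -0.38 and -0.49. Per 100 normalized counts of PSMB5 there were 5.92, 6.21 and 6.42 of PSMB8 in DMSO, 2.57, 2.90 and 2.47 at 0.5 µM, and 3.15, 2.64 and 2.88 at 1.5 µM. The mean ratio dropped by 57.2% at 0.5 µM, from 6.18 ± 0.252 to 2.65 ± 0.224, and dropped by 53.2% at 1.5 µM, to 2.89 ± 0.255 (SD, n = 3, exact permutation test, two-sided p = 0.1 for each dose, the smallest possible).

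**Figure D5:**
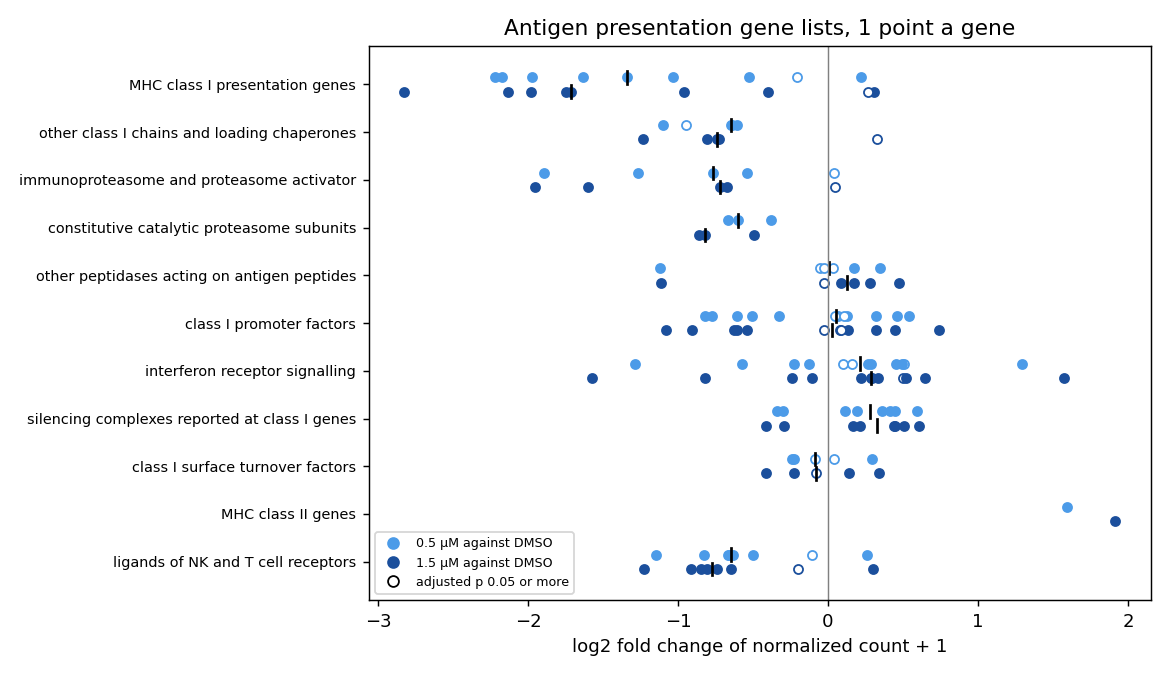
Log2 fold change of the normalized count + 1 against DMSO for every tested gene of 11 lists, 1 point a gene, at 0.5 µM (light) and 1.5 µM (dark), with open points for an adjusted p of 0.05 or more and a tick at each median. The class I presentation genes have the lowest medians (-1.34 and -1.71), while the promoter factors, peptidases and interferon signalling genes lie on both sides of 0.

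The other peptidases that act on antigen peptides moved both ways. At 0.5 µM 2 of 6 were higher and 1 lower, and at 1.5 µM 4 were higher and 1 lower. The gene that fell, BLMH, encodes a cysteine peptidase and had log2 fold changes of -1.12 and -1.11. The aminopeptidase gene NPEPPS rose by 0.35 and 0.48, and TPP2 by 0.17 and 0.28.

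Factors that act at class I promoters moved both ways. At each dose 5 of 12 were lower and 4 higher, and the median was 0.06 at 0.5 µM and 0.02 at 1.5 µM. IRF2, which binds the ISRE, fell by log2 fold changes of -0.77 and -1.08, and NFKB1, an NF-kappa B subunit, by -0.82 and -0.91. NFYA, a subunit of the factor that binds CCAAT, rose by 0.54 and 0.74. The 12 interferon receptor signalling genes split into 5 higher and 4 lower at 0.5 µM, then 7 higher and 4 lower at 1.5 µM. The kinase gene JAK1 rose 2.45-fold and 2.97-fold, from 4678 ± 149.9 normalized counts to 11449.7 ± 260.5 and 13912 ± 362 (SD, n = 3). IRF9, the DNA-binding subunit of the complex that type I interferon activates, fell from 747 ± 43.2 normalized counts to 307 ± 37.5 and 251 ± 30.3. IFNGR2, a chain of the interferon gamma receptor, fell by log2 fold changes of -0.58 and -0.82. Members of silencing complexes reported at class I genes mostly rose, 6 of 8 at each dose, with 2 lower. DNMT3B (0.60 and 0.61) and DNMT1 (0.36 and 0.51), both DNA methyltransferases, and SUZ12 (0.41 and 0.45), a Polycomb subunit, were among those that rose. The 2 that fell were DNMT3A, also a DNA methyltransferase (-0.30 and -0.41), and EED, also a Polycomb subunit (-0.34 and -0.29).

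Genes listed as class I surface turnover factors moved both ways, and their action on class I molecules was not tested. For 5 tested turnover factors out of 6, the split was 1 higher and 2 lower at 0.5 µM, and 2 higher and 2 lower at 1.5 µM. MARCH9, a ubiquitin ligase, had log2 fold changes of -0.24 and -0.41, the protease gene HM13 -0.23 and -0.23 (-0.42 and -0.44 on FPKM values), and TMEM127 0.29 and 0.34. Ligands that NK and T cells read beside class I were mostly lower: 8 of 14 were tested, and 6 fell and 1 rose at each dose. ULBP1, a ligand of the NK receptor NKG2D, fell from 220.4 ± 4.80 normalized counts to 98.8 ± 1.85 and 94.6 ± 15.4. CD276 fell by log2 fold changes of -0.63 and -0.91, and PVRL2 by -0.50 and -0.85.

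MHC class II genes formed another list, and RFX and CCAAT factors are known to act on them too. The part of these factors in any change was not tested. Only HLA-DMA, the gene of 1 chain of the peptide exchange factor HLA-DM, was in the table. It rose from 90.0 ± 4.63 normalized counts in DMSO to 275 ± 35.2 and 342 ± 32.5, log2 fold changes of 1.60 ± 0.11 and 1.91 ± 0.11 (SE, adjusted p = 4.98e-07 and 8.81e-08). The other 11 stood at 0.55 FPKM or less in every library. HLA-DRB1 was at 0.11 to 0.2 FPKM and HLA-DQB1 at 0.08 to 0.1 in the 3 libraries with H19 and SLC2A3, and both were listed at 0 in the other 6.

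Markers of non-neuroendocrine SCLC cells, a state known for higher class I levels, were lower in JQ1 in sum. The 7 of 9 in the table summed to 15699 to 16117 normalized counts in DMSO, 6853 to 7739 at 0.5 µM and 5646 to 6451 at 1.5 µM, most of it from CD44, and AXL and CAV1 were at 0.14 FPKM or less. REST, a repressor of neuronal genes, went the other way, from 26.6 ± 9.40 normalized counts (SD, n = 3) to 54.3 ± 12.2 and 80.4 ± 14.6, log2 fold changes of 1.04 and 1.60 (adjusted p = 0.00706 and 0.000389). Within the list, YAP1 and ANXA1 were high in the 3 libraries with H19 and SLC2A3. Of 6 leukocyte markers only CD14 was in the table, at 71.0 to 82.4 normalized counts in DMSO, 12.4 to 17.6 at 0.5 µM and 7.10 to 15.5 at 1.5 µM. CD3E, MS4A1 and PTPRC were at 0.05 FPKM or less. Of 6 fibroblast and endothelial markers 2 were in the table, and their sum was 4021 to 4087 normalized counts in DMSO, 1629 to 1980 at 0.5 µM and 1431 to 1793 at 1.5 µM, nearly all of it COL1A2. DCN, of the same list, was at 0.40 to 0.41 FPKM in the 3 libraries with H19 and SLC2A3. It was at 0 to 0.02 FPKM in the other JQ1 libraries and at 0 in DMSO. The part of all these markers in the fall of the class I genes was not tested. Without the 3 libraries with H19 and SLC2A3 the counts of class I genes called against DMSO were unchanged, 7 lower and 1 higher at each dose.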

How the data were processed

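Total RNA of COR-L279 cells was sequenced in 9 libraries, 3 each for DMSO, 0.5 µM JQ1 and 1.5 µM JQ1 after 24 h, made with a stranded TruSeq kit per the labels. Per the submitters' processing notes, cutadapt, STAR and RSEM were used with hg19. Their versions, and whether reads were counted by strand, are not given in the sources at hand. The authors deposited normalized counts, a signal of gene counts divided by 1 size factor per library, and multiplying back gave whole reads, to within 0.001, for 100% of the values. The authors also deposited FPKM values, scaled for length and library size, which gave levels between genes and genes outside the main table. Neither an hg19 annotation nor protein sequences were used, so gene positions are not printed, and promoter windows come from RefSeq on GRCh38.p14.

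The 17514 genes that reached 10 normalized counts in 3 or more libraries were fitted in limma 3.58.1 (R 4.3.3, two-sided) as log2 of the normalized count plus 1, with trended variance and all 9 libraries in 1 fit. Benjamini-Hochberg adjustment ran over all genes of a comparison, the threshold was 0.05, and the test was checked on simulated data. In that check genes varied independently, and far fewer were changed than were called here. It did not cover deviations that libraries share across genes. Fold changes come from the log2 scale and are relative to the bulk of genes. Ratios were compared by exact permutation over libraries. The members and lists were chosen with earlier results of these data known. Every member is named. Of each other list, up to 3 genes are named, the largest absolute changes at 1.5 µM among genes past the test that average 20 or more normalized counts. HLA-E, PSME1, DNMT3A, EED and the marker genes fall outside that rule where named and were chosen after their values were seen. For NLRC5, B2M and HLA-B the 2 most alike genes with a mean of at least 100 are named.

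Alternatives were pseudocounts of 0.1 and 5, a minimum of 50 or none, and the FPKM values with 0.1 added and a minimum of 0.5. Scaling was repeated with TMM and upper quartiles, and limma with library weights, without its trend, with a replicate block, and on the 6 libraries of a comparison alone. Each library was left out in turn, as were the 3 with H19 and SLC2A3, and the recovered reads were tested in edgeR 4.0.16 and in DESeq2 1.42.0. The alternatives for the 2 ratios were chosen after seeing the data.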

Additional observations from a re-analysis of the deposited data

How the results depend on the processing

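At both doses 8 class I genes were called against DMSO in all alternatives but FPKM values, which gave 7. On FPKM values and with a minimum of 50, 8 of the 9 genes were tested. ERAP2 was the gene left out on FPKM values, and HLA-B with a minimum of 50. At 0.5 µM the count lower by at least 2-fold was 5 in place of 6 on FPKM values, with library weights and without 0.5 µM replicate 2. The FPKM count lacked ERAP2 because it was not tested there. At 1.5 µM the count was 6 in place of 5 with upper-quartile scaling. It stayed at 5 on FPKM values, with TAPBP in place of ERAP2. Between the doses the count was 1 and depended on the setting: 0 on FPKM values, in the fit to 6 libraries and without the 3 libraries with H19 and SLC2A3, and 2 with library weights. Leaving out 1 library gave 0 (without 1.5 µM replicate 1 or 3) to 3 (without 0.5 µM replicate 2). Signs between the doses changed for differences near 0 or resting on 0.5 µM replicate 2. NLRC5 was -0.28 on FPKM values and -0.065 to 0.20 when 1 library was left out, and TAP1 -0.30 to 0.010. TAP2 was 0.12 on FPKM values, 0.00043 with upper-quartile scaling, 0.071 with library weights, 0.00076 with DESeq2 and -0.080 to 0.091 when 1 library was left out. TAPBP was -0.13 with library weights and -0.13 to 0.18 when 1 library was left out. HLA-B against DMSO was 0.079 at 0.5 µM with library weights, -0.46 to 0.18 there when 1 library was left out, and -0.078 at 1.5 µM without the 3 libraries, where HLA-E was -0.76. The cause was not tested.

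Replicate numbers did not pair the libraries: deviations of same-numbered libraries correlated at -0.385 to 0.131. With a replicate block the counts of class I genes were 8, 8 and 1 as without it, and calls over all genes were 12329, 12852 and 2030 in place of 12255, 12806 and 2233. Over all genes, the 2233 calls between the doses became 5238 with library weights, 1155 in the fit to 6 libraries, 892 on FPKM values (19.5% of them higher, against 36.5%) and 90 without the 3 libraries, and 995 to 1483 without DMSO replicate 2 or a single 1.5 µM library. Low counts limit HLA-B, ERAP2 and PSMB9.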
